A study of Arabidopsis thaliana with 4 samples.

Results

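The LIGHT-DEPENDENT SHORT HYPOCOTYLS (LSH) genes of Arabidopsis thaliana are a family of 10, LSH1 to LSH10, and the account below concerns the binding of the chromatin protein SHORT LIFE (SHL) on and around them. All 10 were found by symbol or synonym among 27444 protein-coding genes on the nuclear chromosomes. A peak was counted for a gene when it overlapped the gene body, or the 1 kb on either side, by at least 1 bp. This gave 7 of the 3678 peaks of ChIP replicate 1 and 8 of the 3494 peaks of ChIP replicate 2. The family was selected on the presence of SHL peaks in these same lists, so the number of members with a peak, and the scores of those peaks, are descriptions and carry no test.

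SHL was mapped by chromatin immunoprecipitation and sequencing in 2 ChIP samples, each with a list of peaks and a score per peak. The other group of the design, 2 input samples of sonicated DNA with no antibody, was not analysed here. All samples were whole Col-0 seedlings, about 10 days old, raised in 16 h of light and 8 h of dark. All of them, inputs included, were ebs shl mutants with SHL tagged with HA under the native SHL promoter, so they also lacked normal EBS, the close relative of SHL, and the antibody was directed at the HA tag of the transgenic protein. The labels do not state whether the ChIP samples came from separate batches of plants, so what they share may be technical. Whole seedlings mix boundary cells, which are few, with all other cells, and a peak does not say in which cells the protein was bound.

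LSH proteins carry the ALOG domain, named after Arabidopsis LSH1 and rice G1, and act in the nucleus as regulators of transcription in land plants. LSH1 was named for the short hypocotyl of light-grown seedlings that overexpress it, a response that needs phytochrome. LSH3, also called ORGAN BOUNDARY 1 (OBO1), and LSH4 are active in the narrow bands of slowly dividing cells that separate new organs from the shoot meristem, downstream of the boundary factor CUC1. SHL reads modified histones through a BAH and a PHD domain, and is known for its part in Polycomb-related repression of flowering genes.

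A peak of both replicates lay on or within 1 kb of 6 of the 10 LSH genes, which were LSH1, LSH2, LSH3, LSH6, LSH9 and LSH10. Of all protein-coding genes, 8.66% met the same rule. Replicate 1 had a peak at 7 LSH genes, where 14.8% of all protein-coding genes had one, and replicate 2 at 7, where 14.4% of all did. LSH8 had a peak in replicate 1 only, LSH5 in replicate 2 only, and LSH4 and LSH7 in neither. Because the family was picked for its peaks, nothing further is read from the gap to the genome-wide share. LSH genes were shorter than most, with a median body of 1310 bp against 2078 bp for all protein-coding genes. Among the 14913 protein-coding genes whose length fell within the LSH range of 957 to 2744 bp, 9.73% had a peak in both replicates. On the body alone, 5 LSH genes had a peak in both lists, against 5.86% of all protein-coding genes. Replicate 1 had a body peak at 5 LSH genes and at 10.2% of all protein-coding genes, and replicate 2 at 7 LSH genes and at 10% of all.

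**Figure D1:**
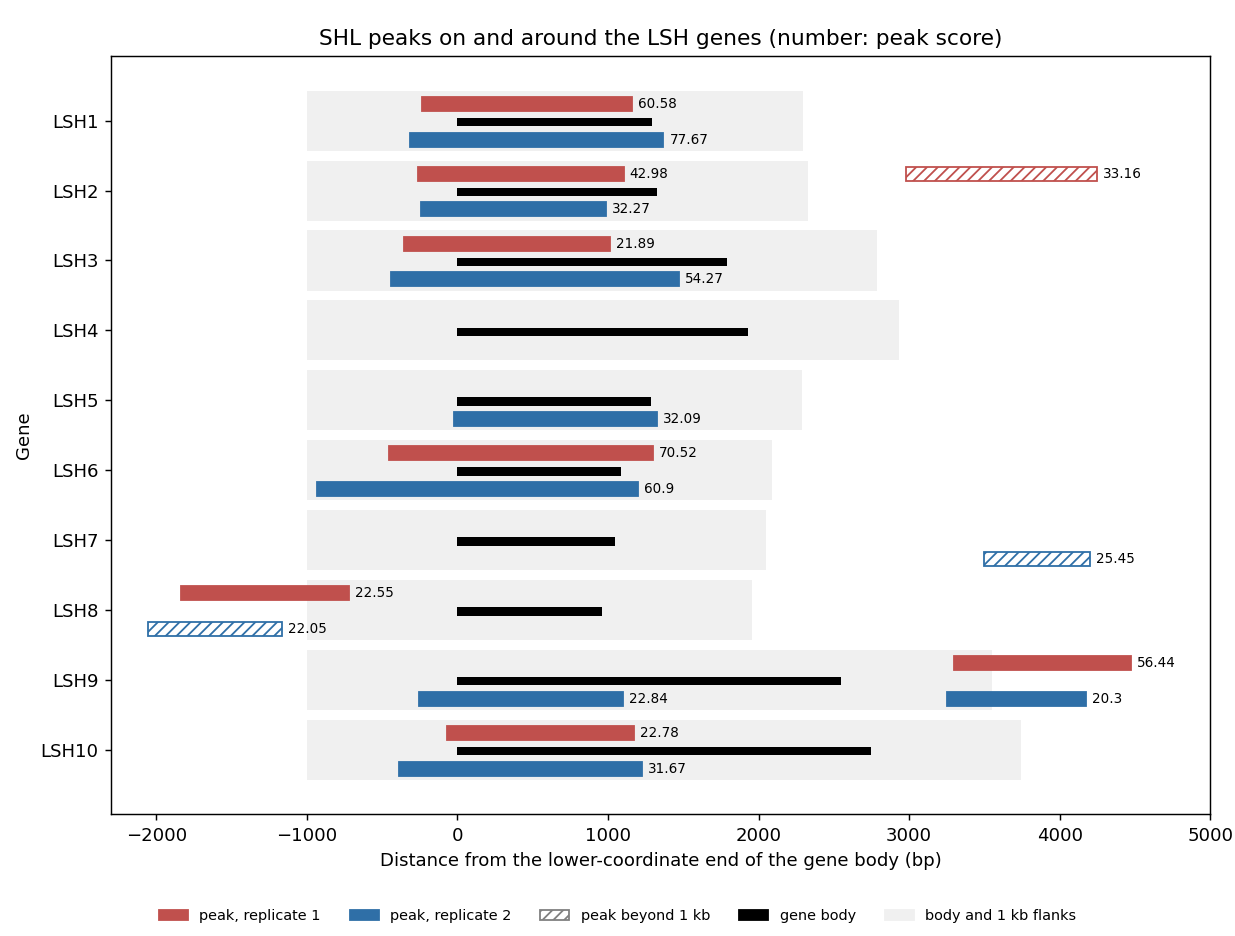
Peaks of replicate 1 (red, above) and replicate 2 (blue, below) around each LSH gene, with distance in bp from the lower-coordinate end of the gene body (black) on the horizontal axis, the body and 1 kb flanks in grey, and the peak score printed beside each bar. Hatched peaks lie beyond 1 kb; in LSH1, LSH2, LSH3, LSH6 and LSH10 the peaks of both replicates cover the same end of the body.

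LSH1 and LSH6 had the highest scores of the family in both lists. The score is the authors' own, given by their peak caller, and is used here only to rank peaks within a list. LSH1 (AT5G28490), also called OBO2, had a peak scoring 60.58 at chromosome 5, 10454153 to 10455549, in replicate 1, and one scoring 77.67 at 10454075 to 10455755 in replicate 2. The replicate 2 peak covered the whole 1294 bp body and the replicate 1 peak 89.8% of it. The shared stretch was 1397 bp, which is all of the replicate 1 peak and 83.1% of the replicate 2 peak. The replicate 2 peak ran 74 bp into AT5G28491, a protein-coding gene that directly adjoins LSH1.

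LSH6 (AT1G07090) scored 70.52 in replicate 1 at chromosome 1, 2173500 to 2175250, and 60.9 in replicate 2 at 2173022 to 2175149. Both peaks covered the whole body of 1087 bp and went past both of its ends. At the lower-coordinate end they reached 452 bp beyond the body in replicate 1 and 930 bp beyond it in replicate 2, and 62.1% and 51.1% of their widths lay within the body. LSH6 and LSH1 were also the only 2 LSH genes with a peak of at least 50 in both lists, as 3.74% of all protein-coding genes had.

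LSH3 (AT2G31160), the boundary gene, was the member whose rank differed most between the lists among those with a body peak in both. Its peak scored 21.89 in replicate 1, higher than 10.6% of the peaks of that list, and 54.27 in replicate 2, higher than 60.4%. The replicate 1 peak lay at chromosome 2, 13277355 to 13278721, wholly inside the replicate 2 peak at 13277270 to 13279180. They covered 56.6% of the 1789 bp body in replicate 1 and 82.2% in replicate 2. LSH4 (AT3G23290), the other member described in boundary cells, had no peak within 1 kb in either list. The nearest peak to it was 15718 bp away in replicate 1 and 15896 bp away in replicate 2, the greatest distance of any LSH gene in replicate 2.

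LSH2 (AT3G04510), whose counterpart in Medicago acts with that of LSH1 in setting the identity of root nodules, scored 42.98 in replicate 1 at chromosome 3, 1215373 to 1216735. In replicate 2 it scored 32.27 at 1215392 to 1216618, inside the replicate 1 peak. These peaks covered 83.2% and 74.4% of the body of 1326 bp. A further peak of replicate 1, scoring 33.16, began 1656 bp past the gene, beyond the 1 kb limit, so it was not counted for LSH2. That peak lay almost wholly on the neighbour THA2, a threonine aldolase gene.

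LSH10 (AT2G42610), whose product binds the histone deubiquitinase OTLD1, scored 22.78 in replicate 1 at chromosome 2, 17747711 to 17748953, and 31.67 in replicate 2 at 17747394 to 17749006. At 2744 bp it was the longest LSH gene, and its peaks covered only 42.7% of the body in replicate 1 and 44.7% in replicate 2. Both covered the lower-coordinate part of the gene and stopped 1571 bp and 1518 bp short of its other end. Like LSH3 it was near the bottom of the replicate 1 list, above 14.7% of the peaks there, and higher in replicate 2, above 39.5%.

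LSH9 (AT4G18610) had a peak in both lists by the counting rule, but not on its body in both. In replicate 2 a peak of 22.84 covered 43.2% of its 2548 bp body at chromosome 4, 10250347 to 10251700. The peak that both replicates shared lay in the flank, 748 bp past the gene in replicate 1 with a score of 56.44, and 702 bp past it in replicate 2 with a score of 20.3. The flank peaks lay at chromosome 4, 10253896 to 10255073 in replicate 1 and 10253850 to 10254774 in replicate 2, and also overlapped 495 bp and 416 bp of PYL13, which encodes a member of the abscisic acid receptor family. The score of 20.3 was above 1.84% of the list, close to its lowest score of 20. On the body alone, therefore, LSH9 had a peak in replicate 2 only.

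LSH5 (AT5G58500) had a peak in replicate 2, scoring 32.09 at chromosome 5, 23645036 to 23646386. It covered the whole 1286 bp body and little else, with 95.2% of the peak inside the gene. The nearest peak of replicate 1 was 8727 bp away. LSH8 (AT1G16910), which acts in abscisic acid signalling, had only a flank peak in replicate 1, scoring 22.55, at chromosome 1, 5783166 to 5784281. It ended 722 bp before the body, and 675 bp of it lay on the neighbouring gene AT1G16905. In replicate 2 a peak of 22.05 lay entirely within AT1G16905 and ended 1167 bp from LSH8, just outside the 1 kb limit. LSH7 (AT1G78815) had no counted peak: the nearest was 51326 bp away in replicate 1 and 2452 bp away in replicate 2, where a peak of 25.45 lay on the neighbouring gene AT1G78820.

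The 12 peaks on LSH bodies shared features that the counting rule did not use. All of them crossed the lower-coordinate end of the gene, 5 of 5 in replicate 1 and 7 of 7 in replicate 2. Over all protein-coding genes, 41.3% of gene and peak pairs did so in replicate 1 and 46.9% in replicate 2. The upper end was crossed by 1 of 5 LSH peaks in replicate 1 and 3 of 7 in replicate 2, against 39.3% and 44.3% of all pairs. This was noticed after the positions were seen and has no test. The shares of all pairs come from genes of any length, and LSH bodies are shorter, so gene length was not held equal. The gene table used gives no strand, so whether the lower end is the start or the end of transcription was not examined, and peaks of both lists on a gene are not separate observations.

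The peaks on LSH bodies had a greater median width than those on all bodies. In replicate 1 the median width was 1367 bp, against 1150 bp for peaks on all protein-coding bodies. In replicate 2 it was 1613 bp, against 1318 bp, and the LSH2 peak was narrower than that median of all genes at 1227 bp. They covered a median of 83.2% of the body in replicate 1 and 82.2% in replicate 2, against 51.3% and 54.7% over all protein-coding genes with a body peak. The bodies are also shorter, which raises the share a peak of a given width can cover.

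No LSH peak was among the high scores of either list. All 15 counted peaks scored under 100, as did 71.1% of the nuclear peaks of each list. Peaks of at least 100 in both lists were thus found at 0 LSH genes, and at 2.71% of all protein-coding genes. Of the 15 peaks, 9 scored under 50, a score that lay between the 58th and 59th percentiles of the nuclear peaks in each list. Among LSH genes with a peak in both replicates, the best score had a median of 49.7 in replicate 1 and 43.3 in replicate 2, against 55.4 and 56.3 over the 2378 protein-coding genes called in the same way. For LSH9 the best score was that of a flank peak in replicate 1 (56.44) and of a different peak, on the body, in replicate 2 (22.84). Taken over the peaks on the body of a gene, called in both lists or not, the median score was 43.0 for LSH peaks and 34.7 for all in replicate 1, and 32.3 for LSH peaks and 35.4 for all in replicate 2. The LSH median was thus below that of all genes in replicate 2 by either choice of peaks. In replicate 1 it was below or above that of all genes depending on which peaks were taken. In replicate 1 the counted peaks ranged in rank from above 10.6% of the list, for LSH3, to above 67.1%, for LSH6. In replicate 2 they ranged from above 1.84%, for the flank peak of LSH9, to above 67.8%, for LSH1. The order of the members differed between the lists: LSH6 was first and LSH1 second in replicate 1, and LSH1 was first and LSH6 second in replicate 2. With 1 score per list and no counts behind it, the error of a score is unknown, and neighbours in this order were not told apart.

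**Figure D2:**
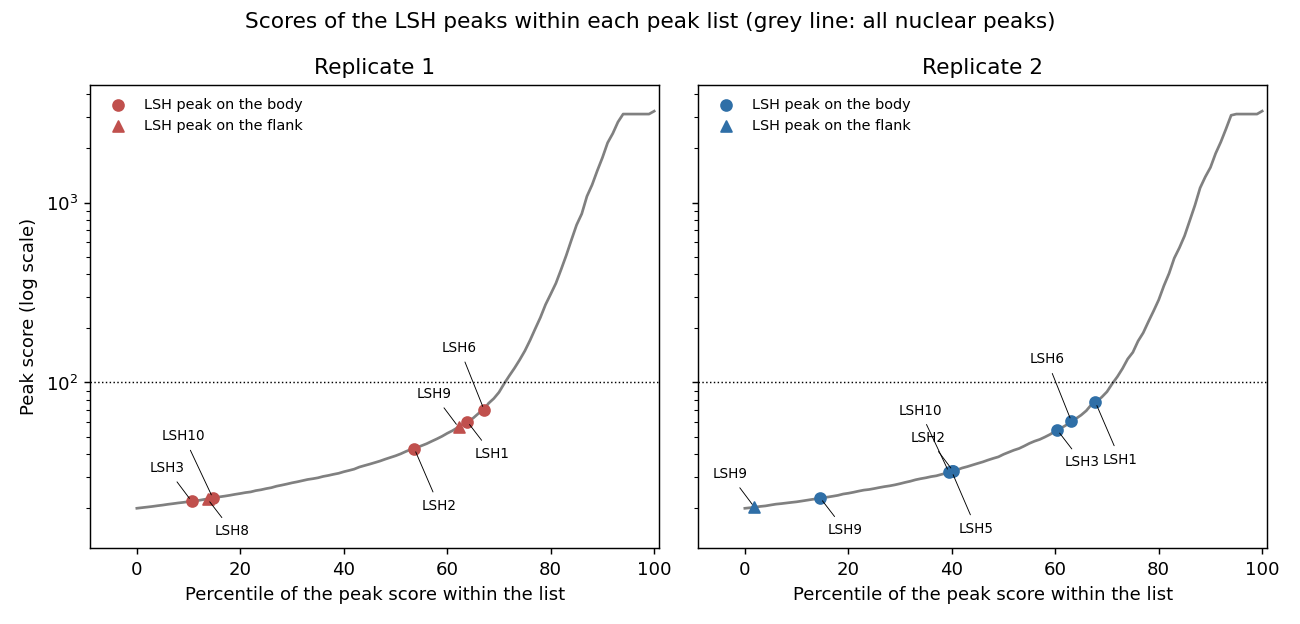
Score of each counted LSH peak (vertical, log scale) at its percentile within the peak list of replicate 1 (left) and replicate 2 (right); circles are peaks on the body, triangles peaks on the flank, and the grey line is all nuclear peaks of that list. Every LSH peak lies below the dotted line at a score of 100, and LSH1 and LSH6 lie highest among the peaks on the body in both lists.

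The LSH genes lay in different surroundings. LSH1 stood in a gene-poor stretch, with 84 protein-coding genes within 500 kb of its midpoint. The gap to the next protein-coding gene on its lower side was 21980 bp. The other LSH genes had 248 to 312, and the median over all protein-coding genes was 271. Within 50 kb of an LSH midpoint there were 0 to 7 peaks in replicate 1 and 1 to 6 in replicate 2, with medians of 4 and 3, against a median of 3 in each list over all protein-coding genes. LSH1 had 2 peaks in each list in that span, its own included.

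By pattern of scores, the genes most like LSH1, the member with the highest lower percentile of the lists, were sought among 2372 other protein-coding genes with a peak in both replicates. Likeness was the distance in log10 best score over the 2 samples. The first was the adjoining AT5G28491, at a distance of 0 because the same peaks were counted for it. RTFL17 (AT1G13245), of the ROTUNDIFOLIA-like family of small peptides, scored 61.97 and 78.83, and CYSB (AT3G12490), which encodes a cystatin, scored 58.99 and 76.49. Over only 2 samples such likeness says no more than that the scores are close.

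Other regulators of organ boundaries had peaks as well. From a list of 22 such genes, written with earlier results of these data known, 9 had a peak in both replicates, beside 8.66% of all protein-coding genes, and all 9 had it on the body in both lists, beside 5.86% of all. A further 4 had a peak in replicate 1 only, 2 in replicate 2 only, and 7 in neither. The shares of all protein-coding genes in these classes were 6.09%, 5.75% and 79.5%. BLH9 (AT5G02030), a homeodomain partner of KNOX proteins listed as RPL in the reference, scored 102.83 in replicate 1 and 78.78 in replicate 2. CUC2 (AT5G53950), a NAC factor that sets boundaries, scored 67.54 and 74.21. LAS (AT1G55580), a GRAS factor needed for axillary meristems in those boundaries, scored 64.78 and 76.5. Each of these peaks was above at least 65.4% of its list, where those of LSH1 and LSH6 were above at least 63.1%.

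Lower on the same list, the LOB-domain gene JLO (AT4G00220) scored 49.27 in replicate 1 and 62.35 in replicate 2. KNAT1 (AT4G08150), a class I KNOX gene of the meristem, scored 43.85 and 62.21. BOP1 (AT3G57130), which encodes a BTB-ankyrin protein of leaf bases and boundaries, scored 35.13 and 84.63. Its paralogue BOP2 (AT2G41370) scored 24.43 and 22.63, and LOB (AT5G63090), the founding member of its family, 23.46 and 38.81. The remaining gene with a peak in both lists was KNAT6, which fell outside the naming rule. CUC1, which activates LSH3 and LSH4, had no peak in either list, and neither did CUC3; both were named after their values were seen.

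Genes of light signalling, the pathway from which LSH1 was named, gave a different count. Of 9 genes on that list, among them PHYA, PHYB, HY5 and COP1, none had a peak in both replicates. CRY2, a blue-light receptor gene, had a flank peak of 29.47 in replicate 1, and the other 8 had no peak within 1 kb in either list. With 9 genes and 8.66% of all protein-coding genes called, a count of 0 is no result about this list, and the difference between the gene lists was not tested.

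**Figure D3:**
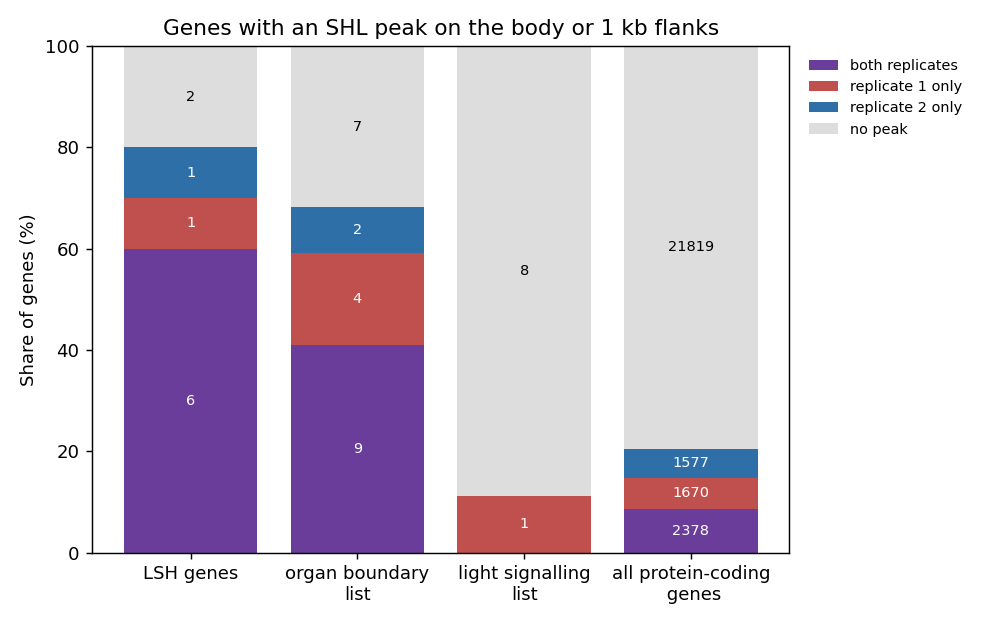
Share of genes (vertical axis, %) with a peak on the body or 1 kb flanks in both replicates, in replicate 1 only, in replicate 2 only, or in neither, for the LSH genes, the organ boundary list, the light signalling list and all protein-coding genes, with the number of genes printed in each segment. The LSH bar shows 6 of 10 genes with a peak in both replicates, the organ boundary bar 9 of 22, the light signalling bar none, and the bar of all protein-coding genes 2378 of 27444.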

How the data were processed

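Each ChIP sample had a deposited peak list of its own, so peaks were called per sample. The tools named, per the submitters' processing notes, are Bowtie2 2.2.8, SAMtools 1.3 and MACS 1.4, and the build is TAIR10. Settings and the control are not given in the sources used here. The authors deposited a score for each peak without a header. In MACS 1.4 output it usually equals 10 times the negative log10 p-value. If that holds here, the lowest scores of 20.01 and 20 mark a lenient cutoff. Peaks near it, such as those of LSH3 (21.89) and LSH10 (22.78) in replicate 1, are then weakly supported. Read depth is unknown. Peak coordinates are TAIR10, written 1-based.

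Gene bodies were taken from RefSeq (assembly TAIR10.1), and no gene coordinate is printed. Over 7155 nuclear peaks, 64.2% of midpoints lay in protein-coding bodies, against 36.1% when moved by -1500 bp and 35.9% when moved by 1500 bp. Percentiles are shares of nuclear peaks of the same list with a lower score. Counting was done in Python 3.11.15 with pandas 2.3.3 and tested on simulated peaks.

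The members and lists were chosen with earlier results of these data known. Named genes were all LSH genes, up to 8 per list with a peak in both replicates by the lower of their percentiles, and the 3 genes nearest to the top LSH gene in score. Planned motif and protein comparisons needed sequences and were not run.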

Additional observations from a re-analysis of the deposited data

How the results depend on the processing

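LSH genes with a peak in both replicates numbered 6 on the body or 1 kb flanks, and 5 to 7 under the changes of window and overlap: 5 on the body alone, with 500 bp flanks or by the peak's midpoint, 7 with 2 kb flanks, and 6 where both replicates' peaks had to overlap by 1 bp or by 50% of each. LSH9 is the gene lost on the narrower windows and LSH8 the gene gained at 2 kb. Of all protein-coding genes, 8.66% were called by the main rule and 5.86% on the body alone. No such share is given for the other windows and overlaps. The range of 5 to 7 is therefore not read as a trait of the LSH genes. Either replicate alone gave 7, beside 14.8% of all protein-coding genes in replicate 1 and 14.4% in replicate 2. The count rested on low scores. With peaks scoring at least 50 it was 2, beside 3.74% of all, and with at least 100 it was 0, beside 2.71%. The organ boundary list, with 9 genes, likewise gave 3 with scores of at least 50 and 0 with at least 100. These stand beside the same shares of all protein-coding genes, and with 2.71% called, 0 of 22 is no result about this list. Under the other changes of window and overlap the list gave 7 to 10. Replicate 2 alone gave 11 of these genes, beside 14.4% of all protein-coding genes, and replicate 1 alone 13, beside 14.8%. Narrowing the window could only keep or remove the score of an LSH gene, except at LSH9 in replicate 2, which alone had more than 1 counted peak. The scores of LSH8 and LSH9 in replicate 1 were lost on the narrower windows and by midpoint. With 2 kb flanks, LSH2 in replicate 1 gained a peak of 33.16, below its best score of 42.98. LSH8 in replicate 2 gained a score of 22.05 there. No paired analysis was possible because the input samples came with no values to compare. The peak lists also give no value per sample that could be tested. Depth sets what a list can hold, and it is unknown here: a gene without a peak had none that reached the lists' lowest scores of 20.01 and 20, which does not show that SHL was absent.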
